A study of Mus musculus with 6 samples.

Results

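The genes described here encode the chains of the interstitial collagens (types I, III, V and XII) and of type VI collagen, together with the collagen cross-linking enzyme lysyl oxidase. They were Col1a1, Col1a2, Col3a1, Col5a1, Col5a2, Col6a1, Col6a2, Col6a3, Col12a1 and Lox, chosen as the rows of the deposited gene table that carry these names. All 10 names were found, each on 1 row, among 34709 genes in the table, and all 10 were among the 15373 tested genes, which averaged 0.5 FPKM or more over the libraries. FPKM is the number of sequenced fragments relative to transcript length and library total, a level that can be compared between genes.

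RNA-seq libraries of mouse articular cartilage came from a knockout group (KO, 3 libraries) and a wildtype group (3 libraries). The study's methods describe male mice, littermates for the aged knockout and wildtype cohorts, with a knockout line bought from a vendor on a C57BL/6J background, and the table marks all 6 libraries as 18 months of age. The labels name no treatment. How many animals went into a library was not stated, so p-values measure the spread between these samples, which may be technical.

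Fibrillar collagens are secreted as triple helices that assemble into fibrils. Type I collagen, made of Col1a1 and Col1a2 chains, is the main collagen of bone, tendon and fibrous tissue, whereas healthy hyaline cartilage is built on type II collagen. Type III often accompanies type I, type V helps to set fibril diameter, type XII sits on the fibril surface, and type VI forms beaded microfibrils that surround chondrocytes in the pericellular matrix. Lysyl oxidase oxidises lysines of secreted collagen so that cross-links can form.

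Total counts ranged from 52268311 to 63331135 per library. Replicates were compared before averaging. KO replicates 2 and 3 differed by a median of 5.78 times the variance of Poisson sampling across genes, against 23.6 to 85.3 times for the other 14 pairs, and they were therefore averaged and counted as 1 sample. The library labelled KO replicate 1 differed less from wildtype replicate 2 (25.4 times) than from KO replicate 3 (73.9 times). The comparison thus held 2 KO and 3 wildtype samples, 5 in all, and the 6 libraries as labelled are given beside it. Means and SDs below use these 5 samples.

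The tissue label was checked against chondrocyte markers, of which 14 of 17 were among the tested genes. Their summed level was 1363 to 4256 FPKM in the KO libraries and 1140 to 2468 FPKM in the wildtype libraries. Several were high in every library: Cytl1 (471.1 to 2759 FPKM), Prg4 (402.3 to 1034 FPKM), Chad (70.3 to 230.4 FPKM) and Comp (41.0 to 109.2 FPKM). Col2a1, the defining collagen of cartilage, was at only 12.4 to 21.3 FPKM, below Col1a1 in all 6 libraries, and Acan, which encodes aggrecan, was at 13.2 to 22.8 FPKM. The matrilin genes Matn1 and Matn3 were listed at 0 in at least 1 library. Blood and bone genes were abundant, with the haemoglobin gene Hbb-bs at 9546 to 45387 FPKM. In such bulk samples fewer cells of a type and less RNA per cell cannot be told apart.

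No member was called different between KO and wildtype cartilage. All 10 had a lower value in KO, with log2 differences (KO minus wildtype) from -1.02 for Col3a1 to -0.20 for Col6a1 and a median of -0.44, against -0.016 over all tested genes. By the quasi-likelihood test of edgeR, with p-values adjusted after Benjamini and Hochberg, 0 of 10 passed an adjusted p of 0.05, and their adjusted p-values lay between 0.406 and 0.849. Over all tested genes 0 passed as well, which is 0.0%, and 2106 genes (13.7%) had an unadjusted p under 0.05, among them 0 members. On the same 5 samples DESeq2 called 880 genes and limma 0, in both cases with 0 members. A log2 difference under 0 was found for 52.5% of all tested genes.

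The size of the shared difference depended on which wildtype libraries were included. Wildtype replicate 1 had the highest level of the 6 libraries for 10 of 10 members, whereas it was the highest library for 25.1% of all tested genes. Without wildtype replicate 1 the members' median difference was -0.15, 8 of 10 were lower in KO, and Col1a1 and Col12a1 turned to 0.16 and 0.18. As that library was the highest for every member, a smaller difference without it follows from the choice. The median was -0.54 without wildtype replicate 2 and -0.74 without wildtype replicate 3, with 10 of 10 lower in KO in both fits. The members also varied more between wildtype libraries than the typical tested gene. Their coefficient of variation over the 3 wildtype libraries ran from 24.2% to 67.0% with a median of 40.3%, against a median of 9.92% for tested genes that reached 5 FPKM on average. The standard errors followed, with a median of 0.367 for the members and 0.202 for all tested genes on the log2 scale.

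**Figure D1:**
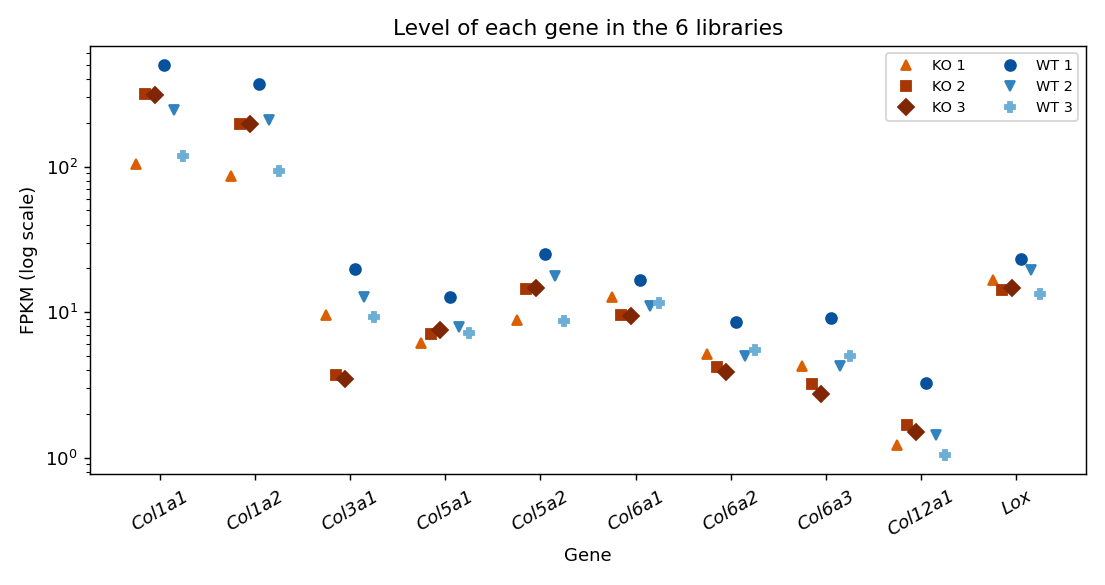
Level of each gene (FPKM, log axis) in each of the 6 libraries, orange to brown for the libraries labelled KO and blue for wildtype (WT). Wildtype replicate 1 is the highest point for every gene, Col1a1 ranges from 104.6 to 495.1 FPKM, and the points of KO replicates 2 and 3 nearly coincide.

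When the 6 libraries were fitted as labelled, 570 genes (3.71%) had an adjusted p under 0.05, and again 0 members did. The unadjusted p was under 0.05 for 3 of 10 members, against 22.2% of all tested genes. These were Col3a1, Col6a3 and Col6a2, with log2 differences of -1.28, -0.82 and -0.51. Their unadjusted p-values by edgeR were 0.0248, 0.0251 and 0.0476, and their adjusted p-values 0.156, 0.157 and 0.22. FPKM values of the groups did not overlap, with KO lower, for 1 of 10 members, Col6a3, and for 16.0% of all tested genes in the 5 samples.

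Type I collagen genes were by far the most abundant members and varied most, by fold and coefficient of variation, between the wildtype libraries. Within the KO group Col3a1 differed more (2.66-fold between the library labelled KO replicate 1 and the average of KO replicates 2 and 3) than Col1a2 (2.29-fold). Col1a1 (chromosome 11, 94936224 to 94953042, GRCm38, 51 exons) was at 104.6, 317.0 and 312.1 FPKM in KO replicates 1 to 3 and at 495.1, 246.3 and 117.6 FPKM in wildtype replicates 1 to 3. The library labelled KO replicate 1 and wildtype replicate 3 were both low, wildtype replicate 1 was high, and the groups overlapped. The means were 209.6 ± 148.4 FPKM for KO (SD, n = 2) and 286.3 ± 191.9 FPKM for wildtype (SD, n = 3). The log2 difference was -0.45 (SE 0.637, 95% interval -1.95 to 1.05, adjusted p = 0.849 by edgeR), an interval wide enough to hold a change of over 1 log2 unit in either direction.

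Col1a2 (chromosome 6, 4504814 to 4541544, 52 exons), the partner chain, was at 86.1, 197.0 and 197.4 FPKM in KO replicates 1 to 3 and at 368.5, 209.6 and 92.5 FPKM in the wildtype replicates. The order of the libraries was close to that of Col1a1, with the library labelled KO replicate 1 and wildtype replicate 3 lowest. Its means were 141.7 ± 78.6 FPKM for KO (SD, n = 2) and 223.5 ± 138.5 FPKM for wildtype (SD, n = 3), with a log2 difference of -0.65 (SE 0.587, 95% interval -2.03 to 0.73, adjusted p = 0.726 by edgeR). Both chains together took 0.197% of all counts in the library labelled KO replicate 1 and 0.893% in wildtype replicate 1.

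The ratio of Col1a1 to Col1a2 moved much less than either level. It was 1.21, 1.61 and 1.58 in the KO libraries and 1.34, 1.17 and 1.27 in the wildtype libraries, so that Col1a1 was the higher chain in all 6. The ratio spanned 1.37-fold over the libraries, while the levels spanned 4.73-fold for Col1a1 and 4.28-fold for Col1a2. KO replicates 2 and 3 had the highest ratios, but the groups overlapped through the library labelled KO replicate 1, and the exact permutation test (two-sided) of the log2 ratio over 2 against 3 samples gave p = 0.5. That design allows no p below 0.1.

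Col3a1, which encodes the single chain of type III collagen, had the largest difference of the members. It lies on chromosome 1 (45311538 to 45349706, 51 exons), 24.6 kb from Col5a2 on the opposite strand. Its level was 9.59, 3.73 and 3.48 FPKM in KO replicates 1 to 3 and 19.7, 12.8 and 9.21 FPKM in the wildtype replicates. KO replicates 2 and 3 were below every wildtype library, whereas the library labelled KO replicate 1 lay above wildtype replicate 3. The means were 6.60 ± 4.24 FPKM for KO (SD, n = 2) and 13.9 ± 5.34 FPKM for wildtype (SD, n = 3). The log2 difference of -1.02 (SE 0.470, 95% interval -2.13 to 0.08) had an adjusted p of 0.406 by edgeR.

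Among the members, the call for Col3a1 came closest to the threshold when the library labelled KO replicate 1 was left out. The log2 difference was then -1.98 (95% interval -2.98 to -0.97, adjusted p = 0.065 by edgeR), from a single KO sample whose spread is assumed to be like that of the other groups. Without KO replicates 2 and 3 it was -0.45, with an adjusted p of 0.720. Over all alternatives run, the adjusted p lay between 0.065 and 0.735 for Col3a1, between 0.089 and 0.747 for Col6a3 and between 0.13 and 0.867 for Col6a2.

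**Figure D2:**
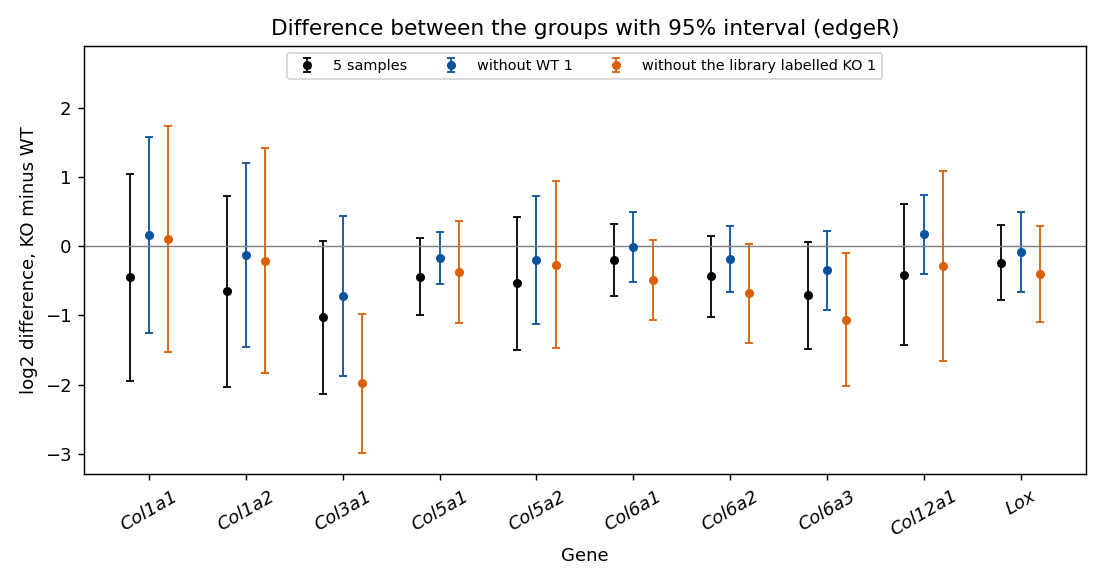
Log2 difference (KO minus wildtype, WT) of each gene with its 95% interval, from the 5 samples (black), without wildtype replicate 1 (blue) and without the library labelled KO replicate 1 (orange). In the 5 samples every interval crosses 0, and without the library labelled KO replicate 1 those of Col3a1 and Col6a3 do not.

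Type I and type III collagen genes parted within the KO group. KO replicates 2 and 3 had 3.01 times the Col1a1 level of the library labelled KO replicate 1, but 0.376 times its Col3a1 level. The ratio of Col3a1 to Col1a1 was 0.092, 0.012 and 0.011 in the KO libraries and 0.040, 0.052 and 0.078 in the wildtype libraries. The averaged KO replicates 2 and 3 thus lay 3.47-fold below the lowest other library and the library labelled KO replicate 1 was the highest of all, an 8.22-fold range. The exact permutation test of the KO against wildtype difference in this ratio gave p = 0.7.

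To show what lies in front of these genes, promoter sequences were read from RefSeq, which held windows for 6 of the 10 members. Windows of 250 bases before the start site are printed for Col3a1, Col5a1 and Col6a3, 1 gene each of types III, V and VI. Each of these windows lay outside annotated exons. A Col6a2 window that also lay outside annotated exons is not printed. The printed windows are given 5' to 3' on the gene's strand, with capitals for 2 motifs. The first was TATAAA, a core promoter motif. The second was GGGCGG, the binding motif of Sp1-like factors. The letters CCAAT were searched as well, all of them on both strands. Coordinates refer to GRCm38.p6, and are chr1:45311288-45311537 (plus strand) for Col3a1, chr2:27886175-27886424 (plus strand) for Col5a1 and chr1:90843972-90844221 (minus strand) for Col6a3.
Col3a1: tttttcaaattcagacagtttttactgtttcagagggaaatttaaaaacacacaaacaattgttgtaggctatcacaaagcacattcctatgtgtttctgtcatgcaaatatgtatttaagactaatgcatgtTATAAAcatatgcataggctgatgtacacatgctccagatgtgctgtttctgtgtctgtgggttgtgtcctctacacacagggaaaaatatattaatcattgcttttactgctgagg
Col5a1: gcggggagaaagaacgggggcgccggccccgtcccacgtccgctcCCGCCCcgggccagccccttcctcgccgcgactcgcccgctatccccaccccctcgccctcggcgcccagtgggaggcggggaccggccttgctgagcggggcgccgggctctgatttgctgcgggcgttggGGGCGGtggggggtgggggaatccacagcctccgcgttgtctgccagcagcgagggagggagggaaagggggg
Col6a3: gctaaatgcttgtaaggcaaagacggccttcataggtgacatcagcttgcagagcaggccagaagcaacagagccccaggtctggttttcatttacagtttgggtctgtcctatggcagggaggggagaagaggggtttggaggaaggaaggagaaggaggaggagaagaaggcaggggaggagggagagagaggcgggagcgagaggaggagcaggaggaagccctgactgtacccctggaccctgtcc
The Col3a1 window was AT-rich, with 35.2% G and C, and held TATAAA at position -117 from the start site. The Col5a1 window had 76.4% G and C and held GGGCGG at -73 and, on the other strand, at -205. The Col6a3 window had 57.2% G and C and none of these letters. The Col6a2 window that is not printed had 59.2% G and C and held GGGCGG on the other strand at -175. Over all 32851 windows the median was 52.4% G and C with quartiles of 45.2% and 61.2%, and TATAAA was found in 12.4%, CCAAT in 33.8% and GGGCGG in 32.7%. A match of letters is a description of the window and shows no factor binding there.

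Type V collagen genes followed the type I pattern in part. Col5a1 (chromosome 2, 27886425 to 28039514, 66 exons) was at 6.17, 7.09 and 7.56 FPKM in KO replicates 1 to 3 and at 12.7, 7.90 and 7.20 FPKM in the wildtype replicates. KO replicate 3 lay above wildtype replicate 3, so the groups overlapped as libraries, although less than for the type I chains. The means were 6.75 ± 0.819 FPKM (SD, n = 2) and 9.27 ± 3.00 FPKM (SD, n = 3), with a log2 difference of -0.44 (SE 0.234, 95% interval -0.99 to 0.12, adjusted p = 0.487 by edgeR).

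Col5a2 (chromosome 1, 45374321 to 45503282, 54 exons), the second type V chain, was at 8.86, 14.5 and 14.7 FPKM in KO and at 24.9, 17.7 and 8.71 FPKM in wildtype. As for type I collagen, the library labelled KO replicate 1 and wildtype replicate 3 were the lowest. Its means were 11.7 ± 4.05 FPKM for KO (SD, n = 2) and 17.1 ± 8.13 FPKM for wildtype (SD, n = 3), with a log2 difference of -0.54 (SE 0.406, 95% interval -1.49 to 0.42, adjusted p = 0.654 by edgeR). Although Col5a2 neighbours Col3a1, KO replicates 2 and 3 were above the library labelled KO replicate 1 for Col5a2 and below it for Col3a1. The ratio of Col5a1 to Col5a2 was highest where Col5a2 was lowest, at 0.696 in the library labelled KO replicate 1 and 0.827 in wildtype replicate 3, and was 0.445 to 0.515 in the other 4 libraries (exact permutation p = 1).

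Col12a1 (chromosome 9, 79598991 to 79718720, 66 exons), which encodes a chain that binds the surface of fibrils, was the least abundant member. Its level was 1.23, 1.69 and 1.5 FPKM in KO replicates 1 to 3 and 3.25, 1.43 and 1.05 FPKM in the wildtype replicates. Wildtype replicate 1 stood alone and the other 5 libraries were mixed between the groups. The means of 1.41 ± 0.254 FPKM for KO (SD, n = 2) and 1.91 ± 1.18 FPKM for wildtype (SD, n = 3) gave a log2 difference of -0.41 (SE 0.431, 95% interval -1.42 to 0.61, adjusted p = 0.777 by edgeR).

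Type VI collagen genes varied less than the type I genes and were lowest in KO replicates 2 and 3. Col6a1 (chromosome 10, 76708792 to 76726168, 35 exons) was at 12.7, 9.64 and 9.39 FPKM in KO replicates 1 to 3 and at 16.7, 10.9 and 11.5 FPKM in the wildtype replicates. KO replicates 2 and 3 were below every wildtype library and the library labelled KO replicate 1 was the second highest of 6. The means were 11.1 ± 2.26 FPKM (SD, n = 2) and 13.0 ± 3.15 FPKM (SD, n = 3), with a log2 difference of -0.20 (SE 0.224, 95% interval -0.72 to 0.33, adjusted p = 0.793 by edgeR).

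Col6a2 (76595762 to 76623630, 28 exons) lies 85.2 kb from Col6a1 on the same strand of chromosome 10, and had 5.15, 4.22 and 3.88 FPKM in KO and 8.61, 5.01 and 5.46 FPKM in wildtype. The library labelled KO replicate 1 again lay among the wildtype libraries and KO replicates 2 and 3 below them. With means of 4.6 ± 0.782 FPKM (SD, n = 2) and 6.36 ± 1.96 FPKM (SD, n = 3), the log2 difference was -0.43 (SE 0.249, 95% interval -1.02 to 0.15, adjusted p = 0.524 by edgeR).

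Col6a3 (chromosome 1, 90765923 to 90843971, 44 exons) encodes the longest of the 3 classical type VI chains. It had 4.29, 3.22 and 2.75 FPKM in KO replicates 1 to 3 and 9.07, 4.30 and 5.00 FPKM in the wildtype replicates. All KO libraries were below all wildtype libraries, but the library labelled KO replicate 1 and wildtype replicate 2 nearly touched. Its means were 3.64 ± 0.921 FPKM for KO (SD, n = 2) and 6.12 ± 2.58 FPKM for wildtype (SD, n = 3), with a log2 difference of -0.71 (SE 0.329, 95% interval -1.48 to 0.07, adjusted p = 0.412 by edgeR). Without wildtype replicate 1 the difference was -0.34.

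The ratio of Col6a1 to Col6a2 spanned 1.27-fold over the libraries and that of Col6a3 to Col6a1 1.86-fold, while Col6a1 itself spanned 1.77-fold. Col6a1 exceeded Col6a2 by 2.46, 2.28 and 2.42 times in the KO libraries and by 1.94, 2.18 and 2.10 times in the wildtype libraries, so every KO library was above every wildtype library. The log2 ratio was 0.22 higher in KO (exact permutation p = 0.1, the smallest this design can give, and 0.6 after Benjamini-Hochberg adjustment over the 6 ratios compared). The ratio of Col6a3 to Col6a1 was 0.338, 0.334 and 0.293 in KO and 0.545, 0.392 and 0.435 in wildtype, with every KO library lower. This difference of -0.48 on the log2 scale had an exact permutation p of 0.2, and 0.6 after adjustment over the 6 ratios.

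**Figure D3:**
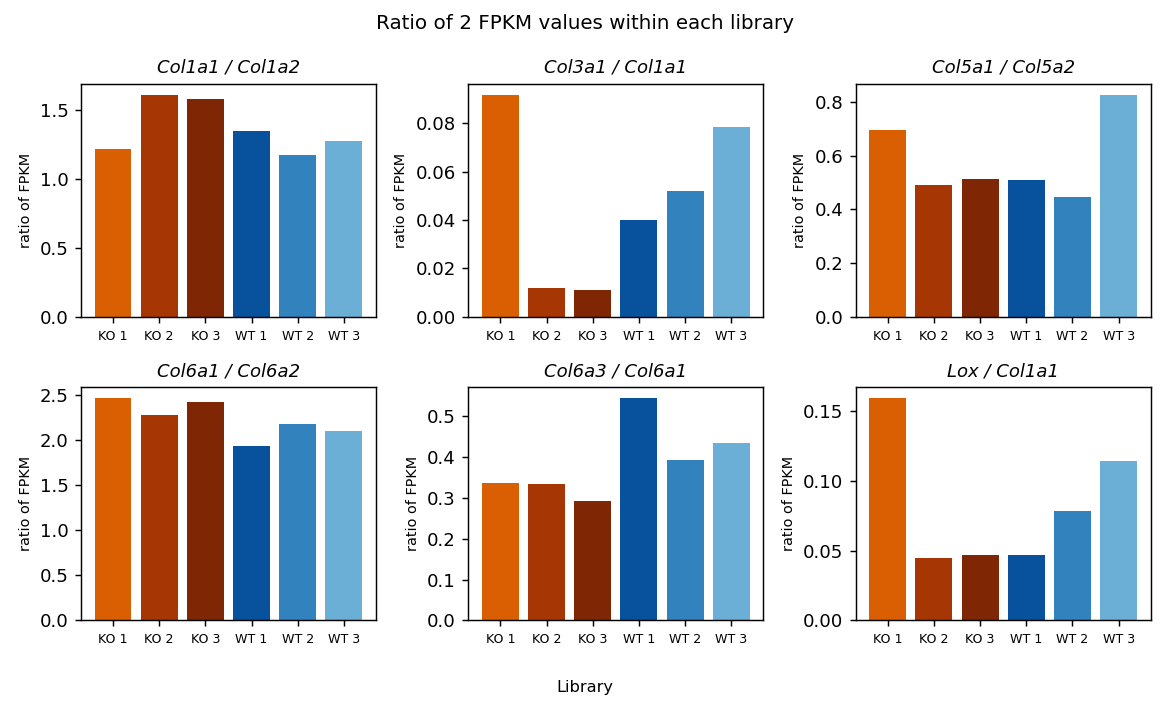
Ratio of the FPKM values of 2 genes within each of the 6 libraries, 3 labelled KO (orange to brown) and 3 wildtype (WT, blue), with each axis starting at 0. The Col6a1 to Col6a2 ratio is at least 2.28 in every KO library and at most 2.18 in wildtype, and the Col3a1 to Col1a1 ratio is at most 0.012 in KO replicates 2 and 3.

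Lox, the cross-linking enzyme (chromosome 18, 52516067 to 52529867, 7 exons), varied least of the members over the libraries, by 1.72-fold. Its level was 16.7, 14.3 and 14.6 FPKM in KO replicates 1 to 3 and 23.1, 19.4 and 13.4 FPKM in the wildtype replicates. Wildtype replicate 3 was the lowest library and the groups overlapped. The means of 15.5 ± 1.57 FPKM for KO (SD, n = 2) and 18.6 ± 4.88 FPKM for wildtype (SD, n = 3) gave a log2 difference of -0.24 (SE 0.230, 95% interval -0.78 to 0.31, adjusted p = 0.750 by edgeR). Relative to Col1a1, Lox was at 0.159, 0.045 and 0.047 in KO replicates 1 to 3, against 0.047, 0.079 and 0.114 in wildtype (exact permutation p = 0.9). After the type I genes, the order of the wildtype means ran from Lox over Col5a2, Col3a1, Col6a1, Col5a1, Col6a2 and Col6a3 to Col12a1, and neighbours in this order differed by less than the larger of their SDs, except Col6a1 from Col5a1 and Col6a3 from Col12a1.

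The members fell into different patterns over the libraries. The distance between 2 genes was taken as the root mean square difference of log2(FPKM + 1) over the 6 libraries, each gene centred on its own mean. The nearest pair was Col6a1 and Col6a2 (0.090), followed by Col5a1 and Col12a1 (0.136), Col6a2 and Col6a3 (0.143) and Col1a1 and Col1a2 (0.176). Col1a1 and Col3a1 were the farthest apart (1.11). The 6 points of each profile share library and depth, and KO replicates 2 and 3 are nearly the same point. Of the 7606 other genes that reached 5 FPKM on average, those nearest to the members' mean profile were Pcolce (0.079), Bmp1 (0.088), Sp7 (0.10), Mmp14 (0.104) and Bgn (0.104). Pcolce encodes an enhancer of procollagen C-proteinase, Bmp1 that proteinase, Sp7 an osteoblast transcription factor, Mmp14 a membrane-bound collagenase and Bgn the proteoglycan biglycan. All 5 peaked in wildtype replicate 1, as did the mean profile by which they were chosen, so this peak is no separate observation. Single members had other neighbours. Nearest to Col1a1 were Col1a2 (0.176) and the immunoglobulin genes Ighv14-2 (0.210) and Igkv4-55 (0.332). Nearest to Col3a1 were Spp1 (0.230), Phlda3 (0.245) and Fcer2a (0.251), and to Col6a3 Nmb (0.086), Gimap3 (0.092) and Cyp1b1 (0.119).

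**Figure D4:**
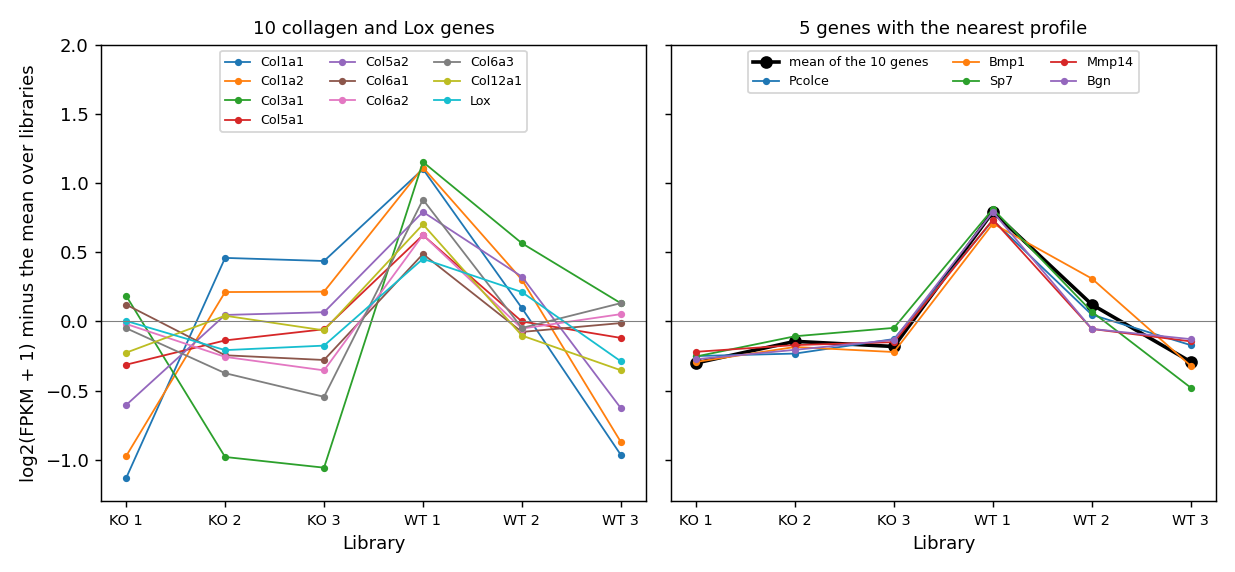
Log2(FPKM + 1) of each gene minus its own mean over the 6 libraries (KO, then wildtype, WT; lines join the points of a gene and carry no order), for the 10 genes on the left and for their mean and the 5 nearest other genes on the right. All lines peak in wildtype replicate 1, which for the 5 nearest genes follows from their choice by nearness to the mean. Col3a1 and Col1a1 part in the KO libraries.

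The machinery that makes and assembles collagen was read from the same fit. Of 21 genes of collagen biosynthesis 20 were tested, 8 with a higher and 12 with a lower value in KO, with a median log2 difference of -0.12, and 0 passed the adjusted threshold by edgeR while 1 had an unadjusted p under 0.05. That gene was Plod3, a lysyl hydroxylase and glycosyltransferase of collagen, at 18.6, 26.6 and 26.4 FPKM in KO and 14.2, 13.9 and 15.2 FPKM in wildtype. Every KO library was above every wildtype library. Its log2 difference was 0.66 (SE 0.147, adjusted p = 0.168 by edgeR, and 0.036 in the fit of the labelled libraries). The chaperone gene Serpinh1 had -0.48 and P4hb, a prolyl hydroxylase subunit, 0.44.

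Of 12 genes of procollagen processing and cross-linking 9 were tested, 2 higher and 7 lower by value, with a median of -0.47 that was close to the members' own. None passed the adjusted threshold by edgeR, and 2 had an unadjusted p under 0.05. Loxl1, a relative of Lox active on elastic fibres, was at 3.29, 2.76 and 2.98 FPKM in KO and 6.64, 4.69 and 5.17 FPKM in wildtype, all KO libraries being lower. Its log2 difference was -0.81 (SE 0.203, adjusted p = 0.182 by edgeR, and 0.042 in the fit of the labelled libraries). The procollagen N-proteinase gene Adamts14 had -0.94 and Bmp1 had -0.59, without passing the test.

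Of 8 further interstitial and type VI chains 5 were tested, with 1 higher and 4 lower by value, a median of -0.28 and 0 past the adjusted threshold by edgeR. Col14a1, a fibril-associated chain, was low in all libraries, at 0.332, 0.396 and 0.472 FPKM in KO and 1.17, 0.804 and 1.24 FPKM in wildtype. Its groups did not overlap, and the log2 difference was -1.45 (SE 0.274, adjusted p = 0.166 by edgeR, and 0.036 in the fit of the labelled libraries). It was the only one of these chains with an unadjusted p under 0.05. Col5a3, the third type V chain, had -0.63 and Col16a1 -0.28, while the other type VI chains Col6a4, Col6a5 and Col6a6 were listed at 0 in at least 1 library and not tested.

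All 9 fibril-associated proteins listed were tested, 3 higher and 6 lower by value, with a median of -0.26 and 0 past the adjusted threshold by edgeR. Postn, which encodes periostin, was the only one with an unadjusted p under 0.05, at 2.92, 1.85 and 2.08 FPKM in KO and 9.53, 4.51 and 3.82 FPKM in wildtype. Its log2 difference was -1.24 (SE 0.406, adjusted p = 0.253 by edgeR, and 0.074 in the fit of the labelled libraries). Sparc, a collagen-binding glycoprotein, had -0.56 and Tnc, tenascin C, -0.49. Wildtype replicate 1 was the highest library for 7 of these 9 genes, 7 of the 9 processing genes and 10 of the 20 biosynthesis genes.

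Markers of cell types that make these collagens moved with the libraries as well. Of 12 osteoblast and osteocyte markers, all tested, 8 were highest in wildtype replicate 1. Their summed level was 1982, 1153 and 1173 FPKM in KO replicates 1 to 3 and 2941, 2929 and 1492 FPKM in wildtype, led by Spp1 (460.9 to 1320 FPKM) and Bglap2 (199.8 to 735.9 FPKM). Wildtype replicate 3 was lowest among wildtype for this sum and for Col1a1. The library labelled KO replicate 1 was above KO replicates 2 and 3 in the sum and below them in Col1a1. That sum was mostly Spp1, Bglap and Bglap2. By gene, Sp7, Runx2 and Ifitm5 were lower in the library labelled KO replicate 1 than in KO replicates 2 and 3, as Col1a1 was. Phex lay between these replicates, and the other markers of this list were higher. Fibroblast markers, 7 of 8 tested, summed to 253.3, 99.9 and 98.9 FPKM in KO and 191.9, 208.3 and 165.3 FPKM in wildtype, led by Dcn (43.2 to 183.4 FPKM) and Lum (23.8 to 66.3 FPKM). KO replicates 2 and 3 were lowest in this sum, as they were for Col3a1, and the sum was carried by Dcn and Lum. By the 5-sample fit, 5 of the 7 tested markers had a lower value in KO and 2 a higher one. Of all tested genes 52.5% had a lower value. Pi16, named after its values were seen as the only marker of this list with an unadjusted p under 0.05, went the other way, at 19.5, 24.6 and 24.0 FPKM in KO and 12.1, 13.2 and 14.1 FPKM in wildtype. Its log2 difference was 0.75 (SE 0.136, adjusted p = 0.166 by edgeR, and 0.036 in the fit of the labelled libraries).

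Tendon and ligament markers, 2 of 6 tested with Kera at 0 in at least 1 library, summed to 64.2, 18.7 and 17.9 FPKM in KO and 35.3, 36.4 and 21.6 FPKM in wildtype. This sum was mostly Thbs4 and Fmod. The untested Scx, Mkx and Tnmd were at 0.26 to 0.58, 0.24 to 0.61 and 0.11 to 1.19 FPKM. Skeletal muscle markers, 8 of 10 tested and led by Tnnc2 and Mylpf, summed to 193.2, 4.81 and 3.92 FPKM in KO and 41.7, 72.4 and 348.3 FPKM in wildtype, with Myh1, Myh2 and Mb at 0 in at least 1 library. The chondrocyte sum was led by Cytl1 (471.1 to 2759 FPKM) and Prg4 (402.3 to 1034 FPKM) and was highest in the library labelled KO replicate 1. That sum was mostly these 2 genes. Of the 14 tested chondrocyte markers 4 were highest in wildtype replicate 1, as type I collagen was. They included the type II and XI collagen genes, named after their values were seen. Col2a1 was at 16.0 FPKM in the library labelled KO replicate 1 and 21.3 FPKM in wildtype replicate 1, Col11a1 at 5.67 and 16.3 FPKM, and Col11a2 at 27.4 and 49.0 FPKM. The other tested markers of this list were highest in the library labelled KO replicate 1. They included the type IX genes Col9a2 and Col9a3 at 5.58 and 4.15 FPKM, Chad at 230.4 FPKM, Comp at 109.2 FPKM and Acan at 22.8 FPKM.

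Of the other lists, osteoclast markers (7 of 7 tested, led by Ctsk and Mmp9) summed to 560.5 to 753.8 FPKM in KO and 684.9 to 1474 FPKM in wildtype, and 6 of the 7 were highest in wildtype replicate 1. Endothelial markers (5 of 5, led by Pecam1 and Cdh5) summed to 18.7 to 21.2 FPKM in KO and 20.0 to 32.9 FPKM in wildtype, and adipocyte markers (5 of 6, led by Fabp4 and Adipoq, with Lep at 0 in at least 1 library) to 20.0 to 52.6 FPKM in KO and 73.9 to 208.3 FPKM in wildtype. The sums were 245.1 to 296.3 FPKM in KO and 281.5 to 364.1 FPKM in wildtype for macrophage markers (6 of 6, led by C1qb and C1qa). They were 91.4 to 143.2 and 290.8 to 325.6 FPKM for B cell markers (10 of 10, led by Cd79a and Cd79b), and 24898 to 60632 and 71620 to 108441 FPKM for erythroid markers (7 of 8, led by Hbb-bs and Hbb-bt). They were 50431 to 62023 and 26796 to 43487 FPKM for neutrophil markers (9 of 9, led by S100a9 and S100a8). Sums of B cell, erythroid, neutrophil and adipocyte markers did not overlap between the groups. Over these marker lists 0 genes passed the adjusted threshold by edgeR in the 5 samples. In the fit of the labelled libraries 9 of 10 B cell, 3 of 9 neutrophil, 1 of 7 fibroblast, 1 of 6 macrophage and 1 of 5 adipocyte markers passed. The other marker lists had 0, and the share of all tested genes was 3.71%. An unadjusted edgeR p under 0.05 was found for 13.7% of all tested genes. Among the markers it was found for 10 of 10 B cell, 5 of 5 adipocyte, 5 of 9 neutrophil, 3 of 7 erythroid and 2 of 7 osteoclast markers. It was also found for 1 of 7 fibroblast (Pi16, higher in KO), 1 of 6 macrophage and 1 of 5 endothelial markers. The part of any of these cell types in the members' levels was not tested.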

How the data were processed

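Each library's group and replicate number follow its title, and the knocked-out gene is not reported here. Per the labels, mRNA was selected with oligo(dT) beads, and strand-specific libraries with molecular identifiers were sequenced from both ends. The submitters' processing notes name cutadapt 1.9, HISAT2 2.0.4, UMI-tools, StringTie 1.3.4d, DESeq2 and edgeR without their roles, and the use of strand in counting was not given in the sources used here. The authors deposited 1 table that gives every gene an FPKM value and a count in every library, and 0 per-sample columns were left unused. The FPKM values were scaled by the authors within each library. The deposited counts were treated as estimated counts: they were whole, so no rounding was needed, but 6596 values were 4 against 4170 at 3 and 2332 at 5.

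Genes averaging 0.5 FPKM or more were tested by quasi-likelihood in edgeR 4.0.16 under R 4.3.3 on TMM-scaled counts, KO replicates 2 and 3 averaged and rounded, with Benjamini-Hochberg adjustment over all tested genes. Intervals use the t distribution with edgeR's moderated degrees of freedom. A count of 0 allows up to 0.0574 CPM in the shallowest library (3 counts), which covers counting error only. FPKM ratios were tested by exact permutation (two-sided) over 10 arrangements. Alternatives were limma 3.58.1, DESeq2 1.42.0, other filters and scalings, a replicate block and each library left out. The code was tested on simulated data. Named were all members, from each machinery list any called gene or otherwise the 3 with the smallest p, the 2 most abundant genes of each marker list, and the 5 nearest profiles. Genes overlapping a member carried at most 0.941% of its counts. Exon numbers come from GENCODE M21, on GRCm38. The members and lists were chosen with earlier results of these data known.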

Additional observations from a re-analysis of the deposited data

How the results depend on the processing

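No member was called under any of the alternatives run, and of the members' differences and ratios 195 values kept their side and direction while 11 reversed. Over all genes 0 were called in the 5 samples, against 570 with the 6 libraries as labelled, 880 with DESeq2, 21 without a filter on low values and 9 without KO replicates 2 and 3. With 1 library left out the count ran from 0 to 352, the highest being without the library labelled KO replicate 1, and the causes were not tested. With 1 library left out, the Col1a1 difference ran from -0.80 to 0.16 and turned to 0.11 without the library labelled KO replicate 1 and to 0.16 without wildtype replicate 1. Col12a1 ran from -0.68 to 0.18, turning without wildtype replicate 1, and Col6a1 from -0.49 to -0.0090, turning to 0.050 without KO replicates 2 and 3 together. The log2 ratio of Col5a1 to Col5a2 was 0.047 and turned to -0.032 with the 6 libraries as labelled, with a leave-one-out range of -0.19 to 0.31 that reached -0.19, -0.036 and -0.13 without the library labelled KO replicate 1, wildtype replicate 1 and wildtype replicate 2. That of Lox to Col1a1 was 0.19 and turned to -0.11 with the 6 libraries as labelled, with a range of -0.71 to 0.50 that reached -0.71 and -0.15 without the library labelled KO replicate 1 and without wildtype replicate 1. Same-numbered libraries did not deviate together (correlations of -0.14, -0.11 and -0.06). KO replicates 2 and 3 were nearly alike, so this check could not decide whether the numbers pair the samples. With the replicate number as a block, on the 6 libraries as labelled, 0 genes and 0 members were called, 2809 genes had an unadjusted p under 0.05, and the members' lowest adjusted p was 0.086 (Col3a1) by edgeR. With a minimum of 5 FPKM, 8 members were tested, without Col6a3 and Col12a1. The median difference of all genes stayed between -0.052 and -0.0013 over the settings. With 2 KO samples, 1 of them nearer to 2 wildtype libraries than to the other, the intervals of the type I genes exclude neither direction.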
